A study of Mus musculus with 24 samples.

Results

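A set of 7 genes of neurotrophin signalling, *Bdnf*, *Ntf3*, *Ntrk2*, *Ntrk3*, *Ngfr*, *Sort1* and *Vgf*, were followed in hippocampal RNA. They were chosen by symbol, and all 7 were found among the 36605 genes of the count table. The RNA came from 24 adult mice, 3 females and 3 males of each of 4 genotypes. Mice with unmodified *Egr1* and no Cre are the wild type (Egr1wtNesCre-), and mice with unmodified *Egr1* and the Nestin-Cre transgene are the Cre controls (Egr1wtNesCre+). Mice whose *Egr1* is flanked by loxP sites are the Egr1cKO controls where Cre is absent (Egr1fNesCre-) and Egr1cKO mice where it is present (Egr1fNesCre+). Nestin-Cre acts from the neural precursor stage onwards, so *Egr1* is lost in neurons and in glia of that lineage, and cells of other origin keep it. The Egr1wt and Egr1f mice carry mouse numbers from 2 separate ranges, so the allele and the series of mice cannot be told apart in any contrast between them. Nothing in the labels describes a stimulus before the tissue was taken.

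Neurotrophins are secreted growth factors that neurons use for survival, branching and synaptic change. BDNF binds the receptor tyrosine kinase TrkB, encoded by *Ntrk2*, and neurotrophin-3, encoded by *Ntf3*, binds TrkC, encoded by *Ntrk3*. The uncleaved precursors bind a different pair, the p75 receptor encoded by *Ngfr* and sortilin encoded by *Sort1*, which also carries pro-BDNF inside the cell. *Vgf* encodes a secreted peptide precursor that neurotrophins induce. In the hippocampus *Bdnf* responds to neuronal activity, as do immediate early genes such as *Fos* and *Egr1*. For this reason the members were compared across genotypes and also against the *Fos* level of each mouse.

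Several *Bdnf* transcripts start at separate promoters, and activity acts on some of them through elements bound by CREB and by AP-1, the dimer that contains FOS. A gene-level count adds all of these transcripts, so the starts are shown here to make plain what the *Bdnf* value sums. RefSeq windows on GRCm38.p6, of 250 bases before and 50 bases after a gene start, were at hand for 4 of the 7 members (7 windows for *Bdnf*, 2 for *Ntf3*, 1 for *Ntrk2* and 1 for *Ngfr*) and for *Fos*. The letters TGACG, the core of the cAMP response element bound by CREB, were found in 1 *Bdnf* window and at 2 places of the *Fos* window, on either strand, and in 20.8% of all 32851 windows. The AP-1 letters TGANTCA were found in another *Bdnf* window and in 7.81% of all windows. Neither the full element TGACGTCA (1.79% of windows, each also counted under its core) nor the EGR1 letters GCGNGGGCG (5.55%) occurred in a window of *Bdnf*, *Ntf3*, *Ntrk2*, *Ngfr* or *Fos*. The 250 bases before the start are given for the windows with a match, on the plus strand, with the matched letters in capitals. The *Bdnf* matches lie at positions −35 and −152 relative to the start.
Bdnf, core letters, chr2:109692186-109692435: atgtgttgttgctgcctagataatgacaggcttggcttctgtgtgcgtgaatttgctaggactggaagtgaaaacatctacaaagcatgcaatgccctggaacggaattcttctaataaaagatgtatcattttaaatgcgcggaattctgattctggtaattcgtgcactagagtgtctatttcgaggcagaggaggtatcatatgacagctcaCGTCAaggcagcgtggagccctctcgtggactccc
Bdnf, AP-1 letters, chr2:109676782-109677031: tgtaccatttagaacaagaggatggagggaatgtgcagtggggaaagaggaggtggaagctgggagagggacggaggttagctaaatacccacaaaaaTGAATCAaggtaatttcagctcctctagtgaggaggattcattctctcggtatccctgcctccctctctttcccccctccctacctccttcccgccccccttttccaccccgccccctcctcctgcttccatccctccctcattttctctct
Fos, core letters at 2 places, chr12:85473640-85473889: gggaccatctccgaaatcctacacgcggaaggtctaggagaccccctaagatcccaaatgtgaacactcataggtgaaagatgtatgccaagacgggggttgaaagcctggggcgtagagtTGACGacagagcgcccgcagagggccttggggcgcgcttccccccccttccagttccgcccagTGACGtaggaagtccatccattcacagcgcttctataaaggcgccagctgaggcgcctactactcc

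Library totals ran from 18025168 to 34955004 counts per mouse, with a median of 22743950.5. *Egr1* averaged 7.95 ± 1.93 CPM in Egr1cKO mice against 93.5 ± 29.8 in their controls, 85.7 ± 28.2 in Cre controls and 108 ± 27.7 in wild type (SD over 6 mice each), and no Egr1cKO mouse overlapped any other. CPM are read counts scaled to a common library size with TMM factors. The labels give the cell type as endocrine, but summed markers of pituitary endocrine cells (6 of 7 matched) reached only 0.899 to 3.84 CPM per mouse, whereas 9 markers of hippocampal neurons summed to 697 to 1209.5 CPM. Cre control female 1 and Egr1cKO male 3 had the lowest hippocampal sums, 697 and 716 CPM, with the next mouse at 909.8. These 2 mice also had raised striatal markers (72.3 and 115 CPM, against a median of 41.4 over all mice), and Cre control female 1 had the highest choroid plexus sum, 2017 CPM against a median of 51.3. Other mice differed in composition too. Choroid plexus sums were 1115 CPM in Egr1cKO male 2, 1025 and 799 in Egr1cKO control males 3 and 2, and 319 in Cre control male 3. Egr1cKO control male 3 also had striatal markers of 79.2 CPM. These other mice were not left out as a set. Some genotype differences and *Fos* relations are given with and without the 2 mice of low hippocampal markers. Values given only with these 2 mice can also have moved without them.

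Per kilobase of exon, *Sort1* had the highest mean level of the members at 92.4 ± 11.8 CPM per kb (SD, n = 24 mice), followed by *Vgf* at 76.9 ± 10.4. The ranges of these 2 overlapped, 70.2 to 109.8 against 60.8 to 102. *Ntrk2* followed at 28.8 ± 4.40 CPM per kb, with no mouse reaching the lowest *Vgf* value. *Ntrk3* (9.40 ± 0.982) and *Bdnf* (7.92 ± 1.35) were next, and their ranges overlapped. *Ntf3* had 3.90 ± 0.916 CPM per kb, and its highest mouse, at 5.71, overlapped the lowest *Bdnf* mice. The lowest member was *Ngfr*, at 0.427 ± 0.190 CPM per kb, which rests on 10 to 62 counts per mouse. *Ntf3* rests on 84 to 298 counts and *Bdnf* on 571 to 1926. The order of the means held when the longest coding transcript took the place of all exonic bases, although *Ntrk2* then rose to 63.5 and *Bdnf* to 11.5 CPM per kb. By that length the ranges of *Ntrk2* (45.9 to 79.2) and *Vgf* (63.8 to 106.7) overlapped. The ligand gene *Ntf5*, which encodes neurotrophin-4, had a lower mean than *Ntf3*, at 0.106 CPM per kb. Among genes that process or carry neurotrophins, the proteases *Furin*, *Pcsk1* and *Plat* had 4.77, 5.25 and 5.70 CPM per kb. The sortilin relatives *Sorcs1*, *Sorcs2* and *Sorcs3* had 1.49, 7.79 and 6.55, all below *Sort1*, and the Trk scaffold *Kidins220* had 44.6.

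**Figure D1:**
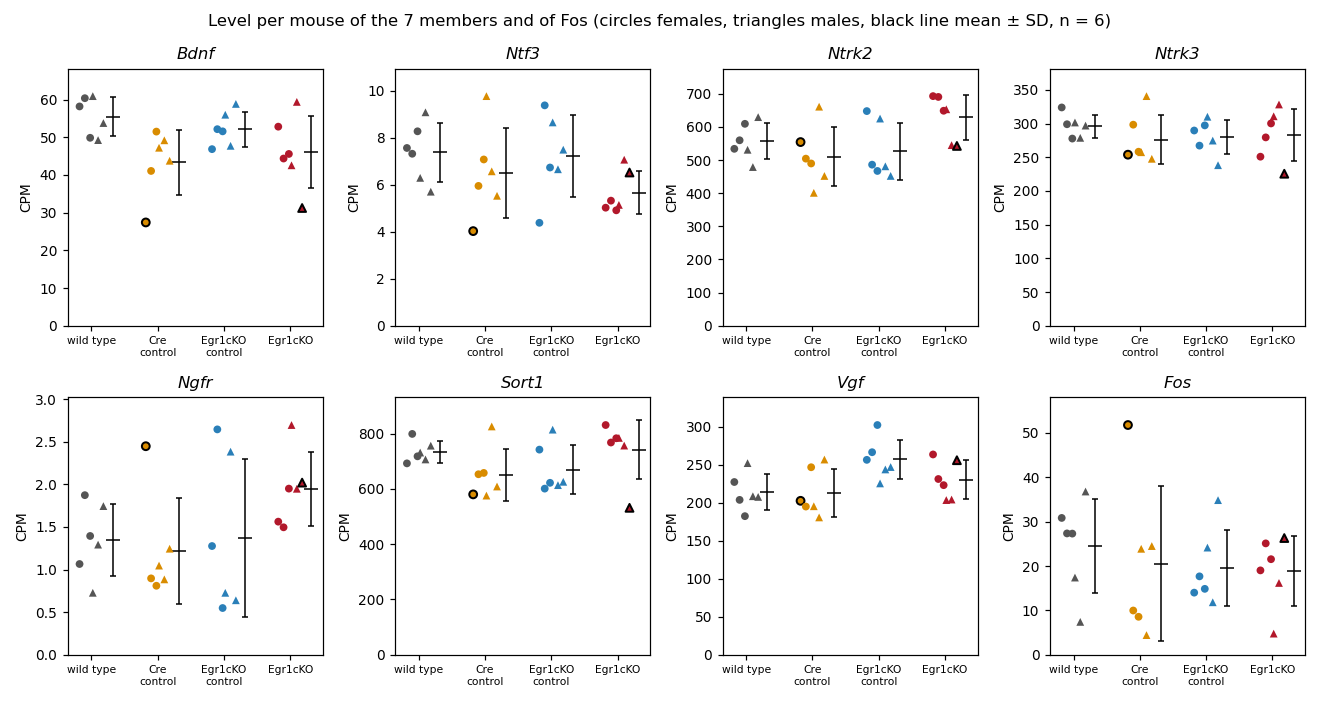
CPM of each of the 24 mice for the 7 members and *Fos*, by genotype, with females as circles, males as triangles and the mean ± SD of 6 mice as a black line, on axes that start at 0. A black rim marks the 2 mice with the lowest hippocampal markers, which have the lowest *Bdnf* values, and in every panel the genotypes overlap.

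Loss of *Egr1* left no member past the threshold of a fold change (FC) of at least 1.2 with an adjusted *p* of at most 0.05. In Egr1cKO mice against their controls 0 of 7 members were called by edgeR's quasi-likelihood test, where 0.0232% of all 17265 genes were, and against Cre controls it was 0 of 7 where 0.00585% were. Neither Cre alone nor the floxed allele alone gave a call, with 0 of 7 members and 0% of all genes in each. At an unadjusted *p* under 0.05 stood 2 of 7 members (*Ntrk2* and *Ntf3*) against the Egr1cKO controls, where 2794 of 17265 genes did. Against Cre controls it was 2 members (*Ntrk2* and *Ngfr*) and 2102 of 17080 genes. In Cre controls against wild type it was 1 member (*Bdnf*) and 1038 of 17167 genes. In Egr1cKO controls against wild type it was 1 member (*Vgf*) and 1683 of 17393 genes. DESeq2 also called 0 of 7 in each of the 4 contrasts. No member had 2 genotypes without overlap, a pattern that 0.463% of all genes showed between Egr1cKO mice and their controls, 0.345% between Egr1cKO mice and Cre controls, 0.245% between Cre controls and wild type and 0.282% between Egr1cKO controls and wild type. The 4 contrasts share groups of mice, so their values are not independent of each other.

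*Bdnf*, the ligand of TrkB, had its highest levels in wild type mice, where the lowest, median and highest values were 49.2, 56.0 and 60.9 CPM. Cre controls had 27.4, 45.5 and 51.5 CPM, Egr1cKO controls 46.8, 51.9 and 58.8, and Egr1cKO mice 31.2, 45.0 and 59.4. Both groups with Cre held the widest spread, and their lowest mice were the 2 with low hippocampal markers. The mean was 43.4 ± 8.66 CPM in Cre controls against 55.4 ± 5.17 in wild type, a log2FC of −0.35 ± 0.12 (SE) that was not called (adjusted *p* = 0.754, range over the alternatives 0.00963 to 0.999). Only the fit without a filter on low counts called it, and without the 2 mice of low hippocampal markers it was −0.25 ± 0.082. Egr1cKO mice, at 46.0 ± 9.57 CPM, differed from their controls, at 52.2 ± 4.63, by −0.18 ± 0.12 (adjusted *p* = 0.443), with a 95% interval of −0.41 to 0.049. Without those 2 mice that difference was −0.079 ± 0.086. Against Cre controls Egr1cKO mice differed by 0.088 ± 0.15 (adjusted *p* = 0.831), and the floxed allele alone differed from wild type by −0.086 ± 0.075 (adjusted *p* = 0.672). In bulk tissue, fewer cells that make a transcript and less transcript per cell cannot be told apart. *Bdnf* lies on chromosome 2 from 109674700 to 109727007 (GRCm38, plus strand, ENSMUSG00000048482), and exons of the antisense gene *Gm45346* overlap it, with a median of 0 counts in these unstranded libraries.

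*Ntf3*, the ligand of TrkC, was lowest in Egr1cKO mice, whose lowest, median and highest values were 4.92, 5.24 and 7.07 CPM. Their controls had 4.39, 7.12 and 9.39 CPM, Cre controls 4.03, 6.27 and 9.78, and wild type mice 5.71, 7.45 and 9.09. Egr1cKO mice lay inside the range of their controls. The log2FC was −0.35 ± 0.16 against the controls (adjusted *p* = 0.301) and −0.19 ± 0.17 against Cre controls (adjusted *p* = 0.64). With the length index as a covariate these were −0.22 ± 0.20 and −0.087 ± 0.20. Without the 2 mice of low hippocampal markers they were −0.37 ± 0.17 and −0.30 ± 0.17 (adjusted *p* = 0.195 and 0.326). Leaving out 1 mouse brought the first to −0.21 (Egr1cKO control female 2) and the second to −0.064 (Cre control male 1). Cre alone gave −0.19 ± 0.18 and the floxed allele alone −0.031 ± 0.17 (adjusted *p* = 0.816 and 0.961). Without the mice of low hippocampal markers the value for Cre alone was −0.084 ± 0.17 (adjusted *p* = 0.900). The gene spans 126101412 to 126166910 on the minus strand of chromosome 6 (ENSMUSG00000049107).

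*Ntrk2*, which encodes TrkB, had the largest difference per standard error in both contrasts of Egr1cKO mice. Its lowest, median and highest values were 542, 651 and 693 CPM in Egr1cKO mice and 452, 483 and 648 in their controls. Cre controls had 401, 497 and 661 CPM and wild type mice 479, 547 and 629. All 3 Egr1cKO females (649 to 693 CPM) lay above every Egr1cKO control, and 2 of the 3 Egr1cKO males, at 542 and 545, lay inside the range of those controls. The mean of 629 ± 68.3 CPM exceeded the 526.4 ± 86.2 of the controls by a log2FC of 0.25 ± 0.096 (95% interval 0.063 to 0.44), and the adjusted *p* was 0.256 over 17265 genes (range over the alternatives 0.0445 to 1.00). Without the 2 mice of low hippocampal markers it was 0.28 ± 0.097 (adjusted *p* = 0.0981). Against Cre controls the log2FC was 0.30 ± 0.11 (adjusted *p* = 0.354), and 0.35 ± 0.12 without those mice (adjusted *p* = 0.125). Cre control male 2, at 661 CPM, was the highest of its group, and without it the log2FC was 0.42 and the adjusted *p* 0.0101, past the threshold. That omission moved many genes at once, with 794 called over all genes where the fit with this mouse called 1. A library measure moved with *Ntrk2*, the length index described further on, and with that index as a covariate the log2FC fell to 0.056 ± 0.075 against the controls and 0.13 ± 0.078 against Cre controls. Summed astrocyte markers were also highest in Egr1cKO mice, at 1394 ± 156 CPM against 1174 ± 114 in their controls, 1279.8 ± 87.7 in Cre controls and 1195 ± 75.7 in wild type. Microglial markers were at 189.5 ± 11.6 CPM against 162 ± 14.6 in the controls, and the part of either in the *Ntrk2* difference was not tested. Neither Cre alone (−0.12 ± 0.10, adjusted *p* = 0.791) nor the floxed allele alone (−0.080 ± 0.094, adjusted *p* = 0.77) was called. *Ntrk2* occupies 58806569 to 59133970 on the plus strand of chromosome 13 (ENSMUSG00000055254). Counts per gene add its full-length and truncated receptor transcripts, and 4 genes of low counts lie in its introns.

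*Ntrk3*, which encodes TrkC, varied least between mice, with a coefficient of variation of 10.4% over the 24. Its lowest, median and highest values were 226, 289.9 and 328 CPM in Egr1cKO mice, 238, 282 and 310.1 in their controls, 248, 258 and 341 in Cre controls and 278, 298 and 324 in wild type. Egr1cKO mice spanned the whole range of their controls. The log2FC was 0.015 ± 0.092 against the controls, with an interval of −0.17 to 0.20, and 0.033 ± 0.10 against Cre controls (adjusted *p* = 0.95 and 0.914). With the length index as a covariate both turned negative, at −0.18 ± 0.082 and −0.16 ± 0.077 (adjusted *p* = 0.945 and 0.84). Cre alone gave −0.098 ± 0.081 and the floxed allele alone −0.083 ± 0.066 (adjusted *p* = 0.784 and 0.643). *Ntrk3* runs from 78175959 to 78738012 on the minus strand of chromosome 7 (ENSMUSG00000059146). An antisense gene in its introns, *Gm9885*, had a median of 86.5 counts against 6195 for *Ntrk3*.

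*Ngfr*, which encodes the p75 receptor, had the largest FC of the members in both contrasts of Egr1cKO mice. Its error was the widest of the members. Its lowest, median and highest values were 1.50, 1.95 and 2.697 CPM in Egr1cKO mice and 0.548, 1.00 and 2.65 in their controls. Cre controls had 0.809, 0.971 and 2.45 CPM, and wild type mice 0.727, 1.34 and 1.87. The lowest Egr1cKO mouse lay above the median of each other genotype, the highest lay just above every other mouse, and the groups overlapped. The log2FC was 0.50 ± 0.37 against the controls (adjusted *p* = 0.501) and 0.66 ± 0.30 against Cre controls (adjusted *p* = 0.401). Without 1 mouse the first ran from 0.33 (Egr1cKO control male 3 left out) to 0.85 (Egr1cKO control female 2 left out). The Cre control mouse at 2.45 CPM was female 1, with low hippocampal markers, and without both such mice the second value was 1.05 ± 0.26 (adjusted *p* = 0.103). Cre alone and the floxed allele alone gave −0.13 ± 0.32 and 0.019 ± 0.39 (adjusted *p* = 0.935 and 0.992). Without the mice of low hippocampal markers the value for Cre alone was −0.46 ± 0.30 (adjusted *p* = 0.677). At these counts a change of up to 1.23 on the log2 scale between Egr1cKO mice and their controls lay within the 95% interval. Its position is 95568818 to 95587735, minus strand, chromosome 11 (ENSMUSG00000000120).

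*Sort1*, which encodes sortilin, had lowest, median and highest values of 532, 776 and 831 CPM in Egr1cKO mice, and the lowest was male 3, of low hippocampal markers. Their controls had 601, 624 and 815 CPM, Cre controls 576, 631 and 826, and wild type mice 693, 725 and 799. The medians of the Cre controls and of the Egr1cKO controls lay below every wild type mouse. The means were 743 ± 106 CPM in Egr1cKO mice, 670.0 ± 87.5 in their controls, 650.4 ± 92.9 in Cre controls and 734 ± 38.7 in wild type. Log2FCs were 0.15 ± 0.10 against the controls, 0.19 ± 0.11 against Cre controls, −0.17 ± 0.083 for Cre alone and −0.13 ± 0.075 for the floxed allele alone, and none was called (adjusted *p* = 0.481, 0.485, 0.754 and 0.539). Without the 2 mice of low hippocampal markers the first rose to 0.23 ± 0.079 (adjusted *p* = 0.0978), and with the length index as a covariate it was −0.074 ± 0.086. The same covariate brought the value against Cre controls to 0.013 ± 0.094, that for Cre alone to −0.069 ± 0.062 and that for the floxed allele alone to 0.0084 ± 0.050. *Sort1* maps to 108284082 to 108361511 on the plus strand of chromosome 3 (ENSMUSG00000068747). The antisense gene *Gm12523* overlaps its exons with a median of 1.5 counts.

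*Vgf*, the neurotrophin-induced peptide precursor, was highest in Egr1cKO controls, with lowest, median and highest values of 226, 252 and 303 CPM. Egr1cKO mice had 204, 227 and 264 CPM, Cre controls 181, 199 and 257, and wild type mice 182, 208 and 252. Of the 6 Egr1cKO controls, 3 lay within the wild type range and 3 above it. The mean of 257 ± 26.1 CPM in Egr1cKO controls against 214 ± 23.7 in wild type was a log2FC of 0.26 ± 0.081 with an adjusted *p* of 0.515 (range over the alternatives 0.0275 to 1.00), called only without a filter on low counts. Egr1cKO mice differed from their controls by −0.16 ± 0.073 (adjusted *p* = 0.309) and from Cre controls by 0.11 ± 0.097 (adjusted *p* = 0.633). With the length index as a covariate these became −0.027 ± 0.064 and 0.27 ± 0.080 (adjusted *p* = 1.00 and 0.84). Without the 2 mice of low hippocampal markers Egr1cKO mice differed from their controls by −0.21 ± 0.063 (adjusted *p* = 0.0732). From Cre controls they then differed by 0.040 ± 0.099 (adjusted *p* = 0.845). Cre alone gave 0.00020 ± 0.094 (adjusted *p* = 0.999), with an interval of −0.18 to 0.19. Its coordinates are 137026392 to 137033351, plus strand, chromosome 5 (ENSMUSG00000037428), with no overlapping gene.

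**Figure D2:**
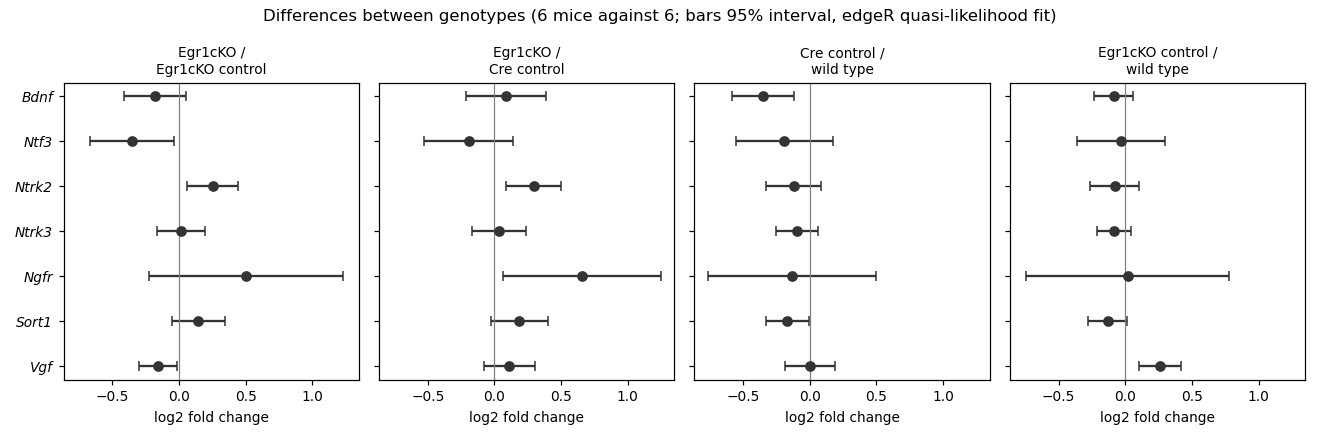
Log2 fold change of each member in the 4 contrasts between genotypes, 6 mice against 6. Bars are 95% intervals from the SE and a normal quantile, which are narrower than the F test implies. Intervals are widest for *Ngfr*, and those of *Ntrk2* lie above 0 in both contrasts of Egr1cKO mice (0.063 to 0.44 and 0.088 to 0.50), although no adjusted *p* passed the threshold.

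Against the 18 other mice together, Egr1cKO mice again had 0 of 7 members called, where 0.00543% of 18433 genes were, and 0 of 7 stood outside the range of the others, a pattern of 0.0109% of genes. At an unadjusted *p* under 0.05 stood 3 members and 2786 of the 18433 genes. The 3 members were *Ntrk2* at a log2FC of 0.25 ± 0.085, *Ngfr* at 0.57 ± 0.27 and *Ntf3* at −0.31 ± 0.15 (adjusted *p* = 0.223, 0.314 and 0.323). An interaction asks whether Cre acts differently on the floxed and the unmodified allele, and it called 0 of 7 members and 0.00507% of 19742 genes. Its largest member values per standard error were *Ntrk2* at 0.38 ± 0.15 and *Sort1* at 0.32 ± 0.14 (adjusted *p* = 0.187 and 0.215). Both passed the threshold when Cre control male 2 was left out, at 0.50 (adjusted *p* = 0.0253) and 0.42 (adjusted *p* = 0.0405), and both were near 0 with the length index as a covariate, at 0.019 ± 0.095 and 0.013 ± 0.11. Between 12 females and 12 males 0 of 7 members were called, where 0.0701% of genes were. An unadjusted *p* under 0.05 was reached by 0 members and by 969 of 17124 genes. Member differences ran from −0.16 ± 0.13 for *Ntf3* to 0.092 ± 0.083 for *Ntrk2* (females over males). The test of whether the sex difference changed with Cre in floxed mice called 0 members and 0% of genes. It had 0 members and 785 of 18622 genes at an unadjusted *p* under 0.05. DESeq2 called 0 members in each of these tests.

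Other genes of the pathway, 68 in a list of adaptors, kinases, proteases and receptor partners, gave 0 calls in every comparison. Of the 63 tested between Egr1cKO mice and their controls, 39 had a positive log2FC, where 8398 of all 17265 genes did. The median was 0.062 over the 63, 0.015 over the 7 members and −0.0071 over all genes. The smallest unadjusted *p* of the list there belonged to *Shc3*, an adaptor that docks on Trk receptors, at 0.61 ± 0.21 (adjusted *p* = 0.255), a gene singled out after its values were seen. The sortilin relatives *Sorcs2* and *Sorcs3*, which bind neurotrophin precursors, were at 0.18 ± 0.081 and 0.20 ± 0.073 (adjusted *p* = 0.297 and 0.255), and *Kidins220* at 0.19 ± 0.079 (adjusted *p* = 0.277). *Sorcs2*, *Sorcs3* and *Kidins220*, with 8802, 7130 and 8669 exonic bases, are in the long class of the length index described further on. The part of that index in the values of this list was not tested.

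*Fos* separated the mice far more than any member did. It ran from 4.42 to 51.8 CPM, an 11.7-fold range, whereas the ranges of the members ran from 1.51-fold for *Ntrk3* to 4.92-fold for *Ngfr*. *Fos* did not follow genotype, with means of 24.5 ± 10.5 CPM in wild type, 20.5 ± 17.4 in Cre controls, 19.6 ± 8.62 in Egr1cKO controls and 18.8 ± 7.84 in Egr1cKO mice. Mice of one genotype therefore held both high and low *Fos*. The slope of a gene on *Fos*, in log2 units per log2 unit of *Fos*, was fitted by edgeR within the 8 groups of genotype and sex. Of 21 genes known to respond to activity 8 were called, all with a positive slope, where 0.0659% of 19741 genes had a called positive slope. *Npas4* had a slope of 0.89 ± 0.072, *Arc* 0.49 ± 0.061 and *Junb* 0.45 ± 0.043 (adjusted *p* = 1.17e-07, 9.97e-05 and 1.69e-06), and *Nptx2*, a slower response gene, had 0.072 ± 0.075 (adjusted *p* = 0.735).

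None of the 7 members was called on *Fos*, where 0.0709% of all genes were. An unadjusted *p* under 0.05 was reached by 2 members and by 2617 of 19741 genes. The 2 members were *Sort1*, with a slope of −0.10 ± 0.038, and *Ntrk3*, with −0.086 ± 0.037 (adjusted *p* = 0.249 and 0.317). Without the 2 mice of low hippocampal markers these slopes were −0.076 ± 0.044 and −0.063 ± 0.042 (unadjusted *p* = 0.097 and 0.151, adjusted 0.747 and 0.769). *Bdnf* had a slope of −0.082 ± 0.058 (adjusted *p* = 0.579), with a 95% interval of −0.20 to 0.031 that lay below the slope of *Arc*, *Junb* and *Npas4*. *Vgf* had 0.042 ± 0.040, *Ntrk2* −0.051 ± 0.047, *Ntf3* −0.047 ± 0.083 and *Ngfr* 0.098 ± 0.16 (adjusted *p* = 0.704, 0.69, 0.855 and 0.843). DESeq2 called 0 of the 6 members to which it gave an adjusted *p*, all but *Ngfr*. A difference of slope between Egr1cKO mice and the other 18 was called for 0 of 7 members and 0% of all genes. Here 0 members and 921 of 19741 genes had an unadjusted *p* under 0.05.

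**Figure D3:**
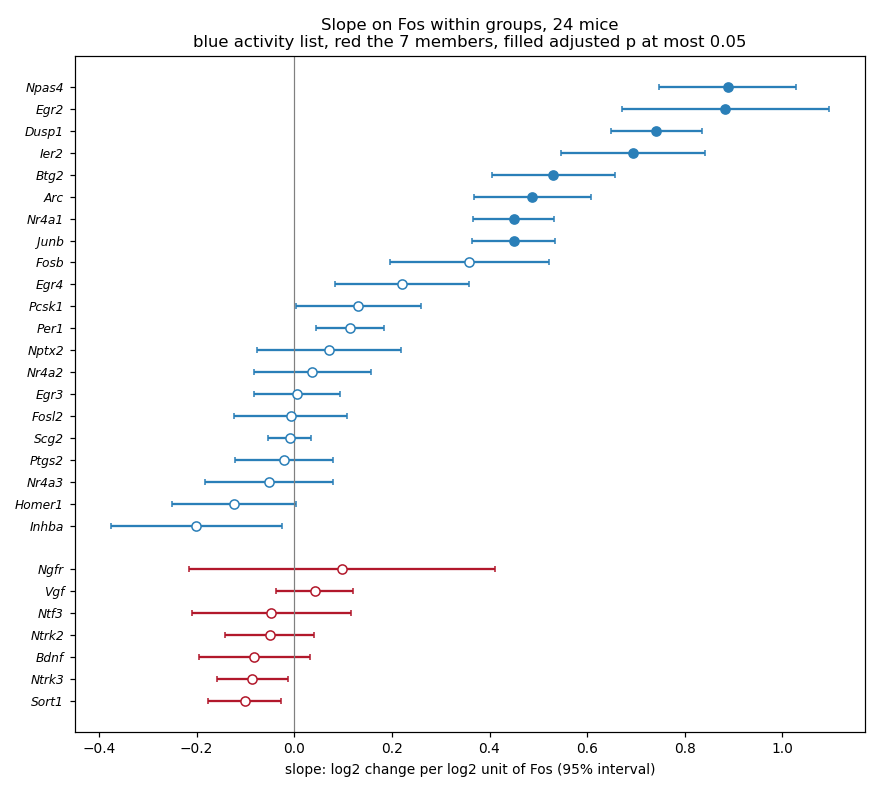
Slope on *Fos* within groups over 24 mice, in log2 units per log2 unit of *Fos* with 95% intervals, for 21 activity genes (blue) and the 7 members (red), with filled points for an adjusted *p* of at most 0.05. The 8 filled points are all activity genes, at slopes of 0.45 and above, and every member is an open point between −0.10 and 0.098.

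*Bdnf* turned sign in this comparison with 2 mice. Cre control female 1 had the highest *Fos* of all mice, 51.8 CPM, and the lowest *Bdnf*, 27.4, and Egr1cKO male 3 had 26.3 and 31.2 CPM. Over all 24 mice the correlation of *Bdnf* with *Fos* on the log2 scale was r = −0.085 (permutation *p* = 0.696) and rho = 0.15 (*p* = 0.473), and without the 2 mice farthest from the median of *Fos*, Cre control male 2 and Egr1cKO male 1, it was r = −0.20. Without the 2 mice of low hippocampal markers it was r = 0.42 (permutation *p* = 0.0544, adjusted over all genes 0.915) and rho = 0.40, with a slope of 0.061 ± 0.048 (adjusted *p* = 0.787). With the hippocampal markers as a covariate over all 24 mice the slope was 0.12 ± 0.043 (adjusted *p* = 0.999). Within the 12 Egr1wt mice r was −0.20 and within the 12 Egr1f mice 0.12, and with the low-marker mouse left out of each these became 0.34 and 0.54. *Bdnf* and *Fos* rose and fell together in the 6 Egr1cKO controls, at r = 0.95, with values of 0.37 in wild type, −0.74 in Cre controls and −0.13 in Egr1cKO mice. In the exact permutation test the Egr1cKO controls gave *p* = 0.0042, adjusted over all genes 0.923.

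Over the 24 mice the members other than *Bdnf* correlated with *Fos* at r between −0.39 (*Ntrk3*) and 0.12 (*Vgf*), and rho ran from −0.33 (*Ntrk3*) to 0.10 (*Ngfr*). The permutation *p* of *Ntrk3* was 0.0613, adjusted over all genes 0.609, and its r was −0.16 without the 2 mice farthest from the median of *Fos*. *Sort1* had r = −0.27 (adjusted *p* = 0.77) and −0.050 without those mice. For *Ngfr*, r was 0.67 in the 12 Egr1wt mice (permutation *p* = 0.0169, adjusted 0.488) and −0.46 in the 12 Egr1f mice (adjusted *p* = 0.99), on 10 to 62 counts. Without the mouse of low hippocampal markers in each series these were 0.56 (permutation *p* = 0.0725) and −0.53 (*p* = 0.0899), and the difference between the series was not tested. These were 7 relations among 19741 computed, of which 12 passed an adjusted *p* of 0.05, and 0 of the 12 were members. All points of a relation share the library and its scaling.

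**Figure D4:**
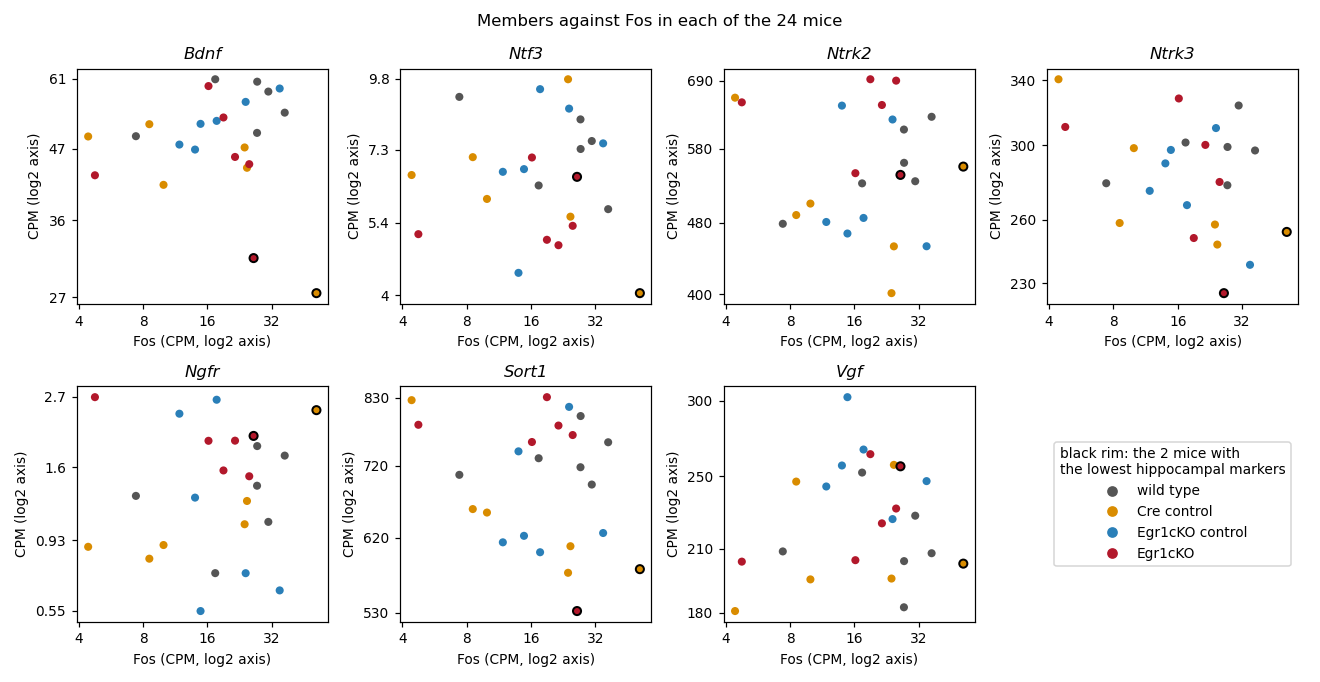
CPM of each member against CPM of *Fos* in the 24 mice, both on log2 axes, coloured by genotype, with a black rim on the 2 mice of low hippocampal markers. *Bdnf* is lowest in those 2 mice, at 27.4 and 31.2 CPM, although their *Fos* levels of 51.8 and 26.3 CPM are at or above the median of 20.3.

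Levels of several members moved with measures of the library that are not part of the design. A length index was taken for each mouse as the median log2 deviation of genes with long exonic sequence minus that of genes with short, over 13546 coding genes (at least 7102.75 against at most 2985.25 bases). It averaged 0.057 in wild type, −0.078 in Cre controls, −0.10 in Egr1cKO controls and 0.11 in Egr1cKO mice. *Ntrk2* correlated with it at r = 0.88 and rho = 0.89, and *Sort1* at r = 0.81 and rho = 0.82 (each permutation *p* = 1e-05, the smallest that 100000 draws can give, adjusted 0.00042 over 84 relations). *Ntrk3* had r = 0.68 (rho = 0.69, adjusted *p* = 0.00456) and *Vgf* −0.51 (rho = −0.45, adjusted *p* = 0.0688). *Ntf3* had −0.37 (adjusted *p* = 0.244), whereas *Bdnf* had 0.041. Leaving out the 2 mice farthest from the median index gave 0.86 for *Ntrk2*, 0.82 for *Sort1* and 0.58 for *Ntrk3*. Within the 12 Egr1wt and the 12 Egr1f mice *Ntrk2* kept r = 0.93 and 0.87, and *Sort1* 0.82 and 0.80. The genes *Ntrk2*, *Sort1* and *Ntrk3* have 19292, 7569 and 30170 exonic bases, all in the long class, and *Vgf* and *Ntf3*, with 2973 and 1714, are in the short class, so these genes entered the index themselves. What sets the index was not tested.

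*Bdnf* moved instead with the sum of hippocampal neuron markers, at r = 0.82 and rho = 0.60 (permutation *p* = 7e-05 and 0.00247, adjusted 0.00118 and 0.0231). Without the 2 mice farthest from the median sum r was 0.49, and it was 0.79 in the 12 Egr1wt mice and 0.87 in the 12 Egr1f mice, and each series includes 1 of the mice with low markers. *Bdnf* fell as the low sum of pituitary markers rose, at r = −0.63 (rho = −0.55, adjusted *p* = 0.0114), and −0.58 without the 2 mice farthest from the median pituitary sum. Only 1 of the 6 matched pituitary genes had a median of at least 1 CPM. The highest pituitary sums, 3.84 and 3.61 CPM, were those of the 2 mice with low hippocampal markers. *Sort1* and *Ntrk3* had r = 0.67 and 0.58 with the hippocampal neuron markers (adjusted *p* = 0.0028 and 0.0186). Without the 2 mice farthest from the median sum these were 0.50 and 0.40. *Ntrk3* fell as striatal markers rose, at r = −0.75 (rho = −0.65, adjusted *p* = 0.00084), and at −0.59 without the 2 mice farthest from the median striatal sum. *Ntrk2*, which astrocytes carry in its truncated form, had r = 0.72 with astrocyte markers (rho = 0.75, adjusted *p* = 0.00118), 0.49 in the 12 Egr1wt mice and 0.84 in the 12 Egr1f mice. The relation was not particular to this gene or these markers. *Sort1* had r = 0.61 with astrocyte markers (adjusted *p* = 0.014), and *Ntrk2* had 0.54 with microglial markers (adjusted *p* = 0.0467). Which cells gave the *Ntrk2* counts was not tested.

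**Figure D5:**
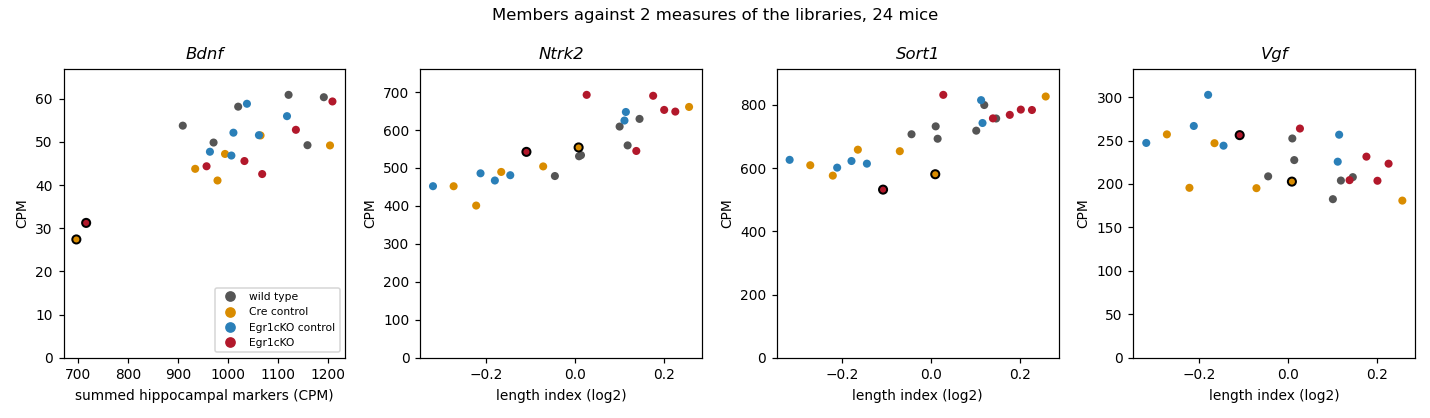
CPM of *Bdnf* against the summed CPM of 9 hippocampal neuron markers, and CPM of *Ntrk2*, *Sort1* and *Vgf* against the length index (log2), one point per mouse and coloured by genotype, with a black rim on the 2 mice of low hippocampal markers. *Bdnf* rises with the markers (r = 0.82), *Ntrk2* and *Sort1* rise with the index (r = 0.88 and 0.81) and *Vgf* falls (r = −0.51).

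The members did not form a single pattern across mice. The highest correlation among the 21 pairs was that of *Ntrk2* with *Sort1*, at r = 0.76 over the 24 mice, and *Sort1* also followed *Ntrk3* at 0.67. *Bdnf* and its receptor *Ntrk2* had r = −0.047, and *Ntf3* and its receptor *Ntrk3* 0.022. The ligands *Bdnf* and *Ntf3* had r = 0.49 with each other, and the lowest value was −0.53, between *Ntf3* and *Ntrk2*. Among 13546 coding genes, those most like *Bdnf* were *Brinp1* (r = 0.90), *Zfp189* (0.87) and *Kbtbd11* (0.85). *Ntrk2* was most like *Shc3* (0.97), *Kif1a* (0.96) and *Myo5a* (0.95), the last 2 being motor proteins, and *Sort1* most like *Rapgef2* (0.97), *Adcy9* (0.97) and *Dock4* (0.96). *Ntrk3* was most like *Zbtb20* (0.91), *Zfp871* (0.85) and *Ap3b1* (0.83), and *Ntf3* most like *Mrgbp* (0.80), *Mterf4* (0.79) and *Itga8* (0.79). *Vgf* followed *Polr2l*, the neuronal enolase *Eno2* and *Tomm5* (0.81, 0.81 and 0.80). The values for *Ngfr* were lower, with *Kank2* at 0.69, *H2-Q6* at 0.68 and *Zic1* at 0.67. These genes were picked for their likeness, so the values are descriptions.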

How the data were processed

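Total RNA from the hippocampus of 24 mice was sequenced after polyA selection, without strand information. The authors aligned the reads and deposited whole-number counts of reads per gene, not normalised. Per the labels the submitters' notes name STAR 2.7.9, Trim Galore 3.8.2 and FastQC. Genes are Ensembl identifiers on GRCm38, and members were matched by symbol.

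Genes passing edgeR's filterByExpr (minimum count 10) were scaled with TMM and tested with the quasi-likelihood test of edgeR 4.0.16 (R 4.3.3), with Benjamini-Hochberg adjustment over all genes tested. Genes were called at an adjusted p no higher than 0.05 and, except for interactions and slopes, FC no smaller than 1.2 in either direction. DESeq2 1.42.0 was an alternative. Errors of fold changes and slopes are SE, with 95% intervals. Permutation tests used log2 CPM (prior count 2), were two-sided, and were exact within a genotype. P-values measure the spread between mice. The tests were checked on simulated counts. Named were the members, *Fos*, *Egr1*, a fixed set of pathway and activity genes, and the 3 coding genes most like each member. The members and lists were chosen with earlier results of these data known. Some genes of the pathway list are not reported here by name.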

Additional observations from a re-analysis of the deposited data

Results flagged for a closer look

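Of 36 groups of 6 mice, 3 held a mouse set apart from the others by Dixon's test, which chance gives in about 1 in 20 groups. *Ngfr* was 2.45 CPM in Cre control female 1, with the nearest mouse of that genotype at 1.24, a gap of 0.735 of the range of the group. *Sort1* was 826 CPM in Cre control male 2, with the nearest at 658 (0.672 of the range), and this mouse also had the highest *Ntrk2* of its genotype. In Egr1cKO mice, *Sort1* was 532 CPM in male 3, with the nearest at 757 (0.752 of the range). Cre control female 1 and Egr1cKO male 3 are the 2 mice with the lowest hippocampal markers.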

How the results depend on the processing

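Of 993 member values under alternatives, 931 kept their direction and side of the threshold, 7 passed the threshold, and 55 changed sign. The length index, the hippocampal covariate and the omission of the 2 low-marker mice were chosen after seeing the data. In the order Egr1cKO against controls, against Cre controls, Cre alone, floxed allele alone, DESeq2 called 82, 37, 17 and 1 genes, and edgeR without a filter on low counts 808, 529, 156 and 163. Against all other mice, the calls were 45 with DESeq2, 7 without a filter, 3 with the replicate block, 3 with sex as a covariate and 218 without the low-marker mice. The interaction gave 242 with DESeq2 and 1173 without a filter, its sex counterpart 3 and 59, the *Fos* slope 355 and 868, and the change of slope 2 and 68. The *Fos* slope gave 8 with the mean of 5 activity genes, 7 with the hippocampal covariate and 9 without the low-marker mice. One fit of 24 mice gave 3 against Cre controls, and the length index gave 2 for Cre alone. Without a filter 1 member was called against Cre controls (*Ntrk2*), for Cre alone (*Bdnf*), for the floxed allele alone (*Vgf*) and in the interaction (*Ntrk2*).

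The replicate numbers in the titles, which are not the animal numbers, did not pair the mice (correlations of −0.15 to 0.22). The replicate block gave 9 genes against the Egr1cKO controls, −0.12 for *Ngfr* with the floxed allele alone and −0.0059 for *Vgf* with Cre alone. With the length index, *Ntrk3* became −0.18 and −0.16 in Egr1cKO mice against controls and Cre controls, and *Sort1* −0.074 against controls. With Cre alone *Ntrk2* became 0.040 and *Vgf* −0.11, and with the floxed allele alone *Ntrk2* became 0.12, *Sort1* 0.0084 and *Ngfr* −0.025. *Vgf* with Cre alone, near 0, was −0.0035 in DESeq2 and with its size factors, −0.0039 without a filter, −0.00098 without sex and −0.0037 in one fit. The *Fos* slope of *Bdnf* was 0.045 on *Arc*, 0.12 with the hippocampal covariate and 0.061 without the low-marker mice. In the last 2 settings *Ntf3* was 0.039 and 0.027 and *Ngfr* −0.15 and −0.094, and *Ntrk2* was 0.013 with the length index. Correlations changed sign to 0.24 (*Bdnf*), 0.077 (*Ntrk2*) and 0.059 (*Sort1*) with *Arc*, to 0.42 (*Bdnf*), 0.12 (*Ntf3*) and −0.056 (*Ngfr*) without the low-marker mice, and to 0.24 (*Ntrk2*) and −0.19 (*Vgf*) without the mice farthest in *Fos*. The cause was not tested.

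Leaving out each mouse in turn gave 2 to 304 genes against the controls, 1 to 794 against Cre controls, 0 to 229 for Cre alone, 0 to 1 for the floxed allele alone, 1 to 215 against all others, 1 to 1455 for the interaction, 11 to 14 for sex, 0 to 2 for its interaction, 11 to 352 for the *Fos* slope and 0 to 1 for its change. Cre control male 2 decided 794, 229 and 1455, Egr1cKO control male 1 decided 304, Egr1cKO male 3 decided 215 and Egr1cKO male 2 decided 352. Counts also moved by over 1.5 times without Egr1cKO females 1 or 3 (2 each, against controls), Egr1cKO male 2 (10 against controls, 2 against Cre controls, 8 against all others, 1 for the change of slope), Egr1cKO male 1 (3 against all others, 2 for the sex interaction), Egr1cKO male 3 (1 for the change of slope), Cre control females 1 and 2 (9 and 2 against all others), Cre control male 3 (1 for Cre alone), Egr1cKO control male 1 (1 for the floxed allele alone, 15 for the interaction, 52 for the *Fos* slope), Egr1cKO control male 2 (279 for the slope) and wild type male 2 (69 for the slope). Members called ran from 0 to 1 against Cre controls and 0 to 2 in the interaction. Sign changed within −0.037 to 0.078 (*Ntrk3*, against controls), −0.021 to 0.20 and −0.011 to 0.10 (*Bdnf* and *Ntrk3*, against Cre controls), −0.064 to 0.052 (*Vgf*, Cre alone), −0.14 to 0.093 and −0.32 to 0.19 (*Ntf3* and *Ngfr*, floxed allele alone), and for the *Fos* slope −0.11 to 0.032 (*Ntf3*), −0.093 to 0.024 (*Ntrk2*) and −0.098 to 0.22 (*Ngfr*). *Ngfr* rests on 10 to 62 counts per mouse.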
